A study of Homo sapiens with 6 samples.

Results

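Ferritin is built from a heavy chain, encoded by FTH1, and a light chain, encoded by FTL, and these 2 human genes were followed through 5 single-cell count matrices. The members were chosen by name: every stored Ensembl transcript whose identifier, without its version, belongs to FTH1 or FTL in GENCODE. Of 13 annotated transcripts of both genes, 8 had stored counts, among 46484 human transcripts and 12472 named human genes with counts in the series. Human myeloma cells labelled JJN3 and mouse myeloma cells labelled 5TGMG1 (5TGM1 in the study's text) were mixed, encapsulated either by 10X Chromium or by Drop-seq (Nadia instrument), and read by nanopore sequencing. Captured RNAs are tagged with a random sequence, the unique molecular identifier (UMI), ahead of PCR, which lets copies of 1 molecule be counted once. By their labels, the groups were Drop-seq after 25, 30 and 35 PCR cycles and 10X after 30 and 35 cycles, each 1 library and without any drug or genetic change. The study's main text gives lower total cycle numbers for its 10X pair than the labels, while its methods count further cycles after an earlier amplification. Whether the 25-cycle Drop-seq label is on the same scale as the others is not given. By the study's methods, the cycle numbers of a platform came from aliquots of 1 amplified product, the human cells were the smaller share of the Drop-seq mix, and the 10X mix was even. The 25-cycle library also differed from the other Drop-seq libraries in its labelled sequencing kit and number of cells. With 1 library per group no difference had a replicate check, no test was run, and all intervals are 95% intervals that cover counting error only. Intervals of levels, ratios and shares of counts treat each count as independent. Ferritin counts lay in few cells with several counts each, so those intervals are too narrow.

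Ferritin is a hollow shell of heavy and light subunits that stores iron in a form that is soluble and harmless to the cell. The heavy chain carries the ferroxidase site that oxidises incoming iron, and the light chain has no such site and helps the iron core to form. Both mRNAs carry an iron-responsive element (IRE), a short hairpin near the 5′ end. When iron is scarce, iron regulatory proteins (encoded by ACO1 and IREB2) bind it and hold back translation, so ferritin protein and ferritin mRNA need not move together.

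The shared hairpin is shown because it is the feature that puts both genes under the same translational control, and because all of the FTH1 transcripts with more than a few counts hold it. The 28 bases below were read from the GENCODE 44 transcripts (hg38) 5′ to 3′ in the sense of the mRNA, with the 6-base loop in capitals.
FTH1 IRE, chr11:61967577-61967604, minus strand: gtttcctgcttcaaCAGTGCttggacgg
FTL IRE, chr19:48965333-48965360, plus strand: gtctcttgcttcaaCAGTGTttggacgg
The element lies in the 5′ untranslated part of the first exon, 151 bases before the start codon in FTH1 and 147 bases before it in FTL. The 2 elements were equal at 25 of 28 bases. With positions counted from 1 at the first base printed and the FTH1 base first, the differences were T3C, C6T and C20T, the last of them in the final base of the loop. The pattern searched was C, any 5 bases, then CAGTG, on the transcript strand, and it occurred in the first 100 bases of 3.71% of 252835 annotated transcripts, so a match describes letters and not a working element.

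To find human cells, barcodes were ordered by total count, the top ones were kept up to the labelled cell number, and those with at least 90% of their counts on human identifiers were called human. This gave 251, 166 and 165 human cells in Drop-seq at 25, 30 and 35 cycles, of 1000, 500 and 500 labelled cells, and 1006 and 911 in 10X at 30 and 35 cycles, of 2000 labelled cells each. A human cell held a median of 118 to 352 counts. The smallest stored value was 1 in Drop-seq at 25 cycles, 3 in Drop-seq at 30 and 35 cycles and 2 in 10X, so a low count was missing from some libraries and kept in others. Human cells of 10X had counts of 9 of 10 plasma cell markers (1080 and 867 counts in all) and of 1 of 13 T cell markers (LAT, 2 counts in each library). Human cells of Drop-seq had counts of 1 of 10 plasma cell markers (MZB1, 5 to 15 counts) and of 5 to 10 of 13 T cell markers (157 to 279 counts). SDC1, JCHAIN and IRF4, which mark plasma cells, were at 0 in the human cells of every Drop-seq library, and CD3D, CD3G and TRBC1, which mark T cells, were at 0 in those of both 10X libraries. The labels name JJN3 for both platforms, and so do the study's main text and library methods. Its culture section instead names Jurkat, a T cell line. So does a figure legend, there for the 10X cells, which carried plasma cell markers. The Drop-seq human cells therefore went against their label and the 10X human cells against that legend, and a difference of ferritin between platforms cannot be told apart from a difference between 2 kinds of human cell.

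The FTL counts all lay on 1 transcript, ENST00000331825 (chr19:48965309-48966879, plus strand, 4 exons, 871 bases), the MANE Select transcript, which is the agreed reference transcript of a gene. The Drop-seq human cells held 24, 33 and 35 FTL counts at 25, 30 and 35 cycles, and the 10X human cells held 16 at 30 and 30 at 35 cycles. FTH1 had 12 annotated transcripts, 7 with counts in any barcode and 6 with counts in human cells. The MANE Select transcript ENST00000273550 (chr11:61964285-61967634, minus strand, 4 exons, 1203 bases) had 86, 49 and 60 Drop-seq counts and 12 and 18 10X counts. Transcript ENST00000532829, annotated as a target of nonsense-mediated decay, had 86, 47 and 60 counts in Drop-seq and 12 and 16 in 10X. Transcript ENST00000534180, of the same class, had 84, 48 and 60 counts in Drop-seq and 12 and 18 in 10X. The 3 identifiers were thus almost equal in every library, at 30.8% to 34.6% of the FTH1 sum each, and the same order of libraries held for all of them.

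The equality went down to single cells. All 3 identifiers had the same value in 32 of 34 human cells with FTH1 in Drop-seq at 25 cycles, 8 of 10 at 30 cycles and 12 of 12 at 35 cycles, and in 6 of 6 and 8 of 9 in 10X. Of the 31-base words of ENST00000532829 and ENST00000534180, 96.9% and 90.5% also occur in the MANE Select transcript. How reads were divided among the 3 was not tested, and the equal counts give no measure of how much of the decay-class transcripts was present. Adding all identifiers gave 2.89 to 3.17 times the count of the largest identifier per cell for FTH1, against 1.47 to 2.14 times over all human genes of the same library. Among human genes with at least 10 counts in human cells, 7.02% to 23.8% had a multiple at or above that of FTH1. FTH1 is therefore given in both ways, as a sum and as the largest identifier per cell, which takes each cell's value once. The interval of the sum is too narrow.

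The remaining FTH1 identifiers were rare. ENST00000620041, a coding transcript with its first exon divided by a short intron, had 15 counts in 11 human cells of Drop-seq at 25 cycles, 0 at 30 cycles and 7 counts in 2 cells at 35 cycles, and 0 in 10X. ENST00000534719, a retained-intron transcript whose annotated start leaves out the first part of the IRE, had 1, 3 and 3 counts in Drop-seq and 0 in 10X. ENST00000526640 had 1 count, in Drop-seq at 25 cycles.

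**Figure D1:**
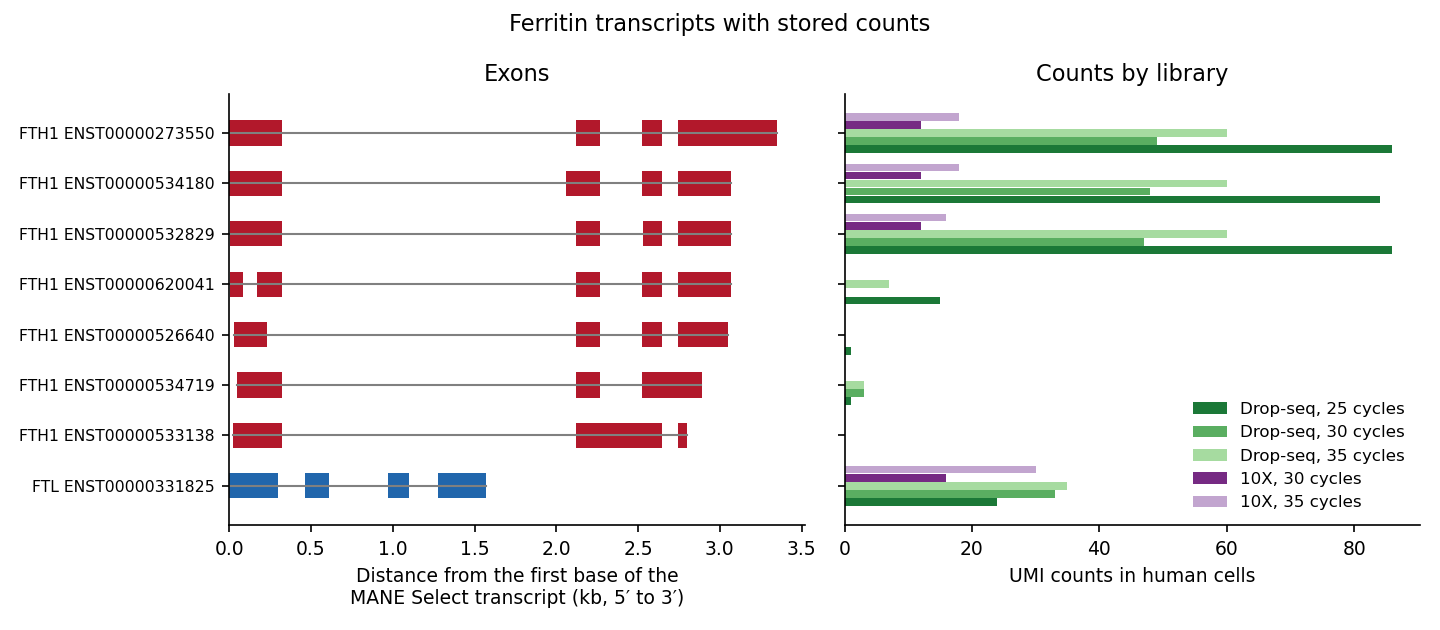
Exons of the 8 ferritin transcripts with stored counts (left, distance in kb from the first base of the gene's MANE Select transcript) and their UMI counts in human cells of each library (right, bars from 0). The top 3 FTH1 rows carry nearly the same bars in every library, for example 86, 84 and 86 in Drop-seq at 25 cycles, and their exons differ only at a few ends.

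FTH1 ranked higher among the human genes of the Drop-seq cells than among those of the 10X cells. Its summed level was 2369 counts per 1000000 human counts (CPM, interval 2096 to 2667) at 25 cycles, 2189 (1850 to 2573) at 30 cycles and 2032 (1753 to 2343) at 35 cycles in Drop-seq. In 10X it was 222 (156 to 308) at 30 cycles and 261 (195 to 342) at 35 cycles. By rank among the genes with counts it stood at 65 of 4977, 70 of 2705 and 75 of 3236 in Drop-seq, and at 590 of 7858 and 412 of 7639 in 10X. With FTH1 at its largest identifier the Drop-seq ranks were 250, 261 and 303 and the 10X ranks were 1815 and 1269, where FTL stood at 1360 and 751. All other genes stayed summed over their identifiers in these ranks, so unlike measures were compared. On the largest identifier per cell the FTH1 level was 746 CPM (597 to 922), 730 (540 to 965) and 642 (490 to 826) in Drop-seq and 74.1 (38.3 to 129) and 90.3 (53.5 to 143) in 10X. The human total of a CPM stayed summed over identifiers, for this level and for FTL. Over all human genes that sum was 2.04 to 2.14 times the largest-identifier counts in Drop-seq and 1.47 to 1.53 times in 10X. Both countings put the libraries in the same order, with the 3 Drop-seq values overlapping in their intervals, the 2 10X values overlapping, and a gap between the platforms.

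FTL levels spread less between libraries than those of FTH1. The FTL level was 208 CPM (133 to 310) at 25 cycles, 492 (338 to 690) at 30 cycles and 374 (261 to 521) at 35 cycles in Drop-seq, and 98.8 (56.5 to 160) and 150.5 (102 to 215) in 10X. The order was Drop-seq at 30, 35 and 25 cycles, then 10X at 35 and 30 cycles. All neighbours in that order overlapped in their intervals, including Drop-seq at 25 cycles with 10X at 35 cycles. A single cell held 12 of the 33 FTL counts at 30 cycles and 16 of the 35 at 35 cycles in Drop-seq. Without that cell the FTL level was 317 CPM at 30 cycles and 206 CPM at 35 cycles.

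**Figure D2:**
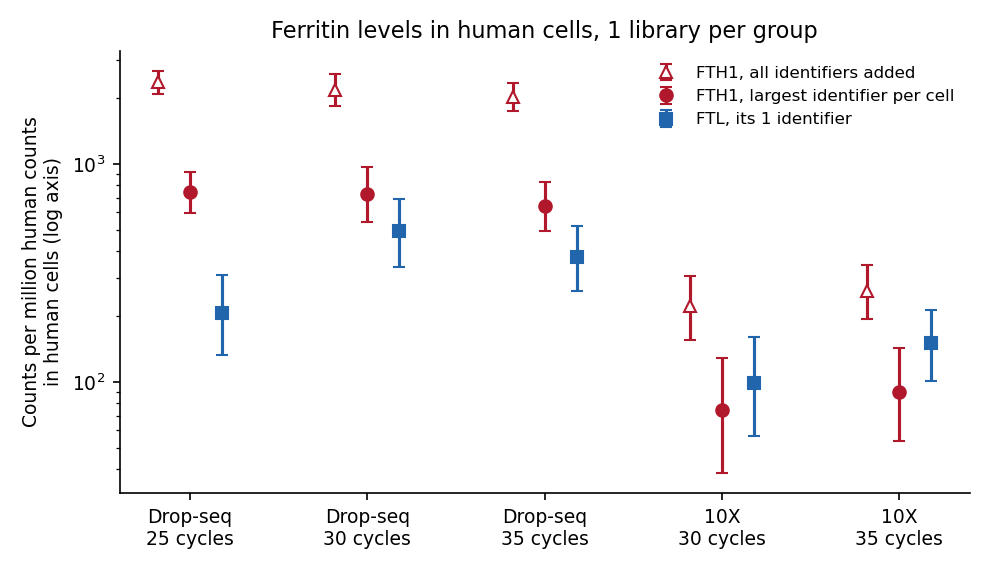
Ferritin levels in human cells by library, in counts per 1000000 human counts (log axis), 1 library per point, with exact Poisson 95% intervals that cover counting error only. FTH1 lies between 642 and 746 in the 3 Drop-seq libraries on its largest identifier and between 74.1 and 90.3 in 10X. All FTL neighbours overlap in their intervals when libraries are ordered by FTL level, but not in the plotted order. There, Drop-seq at 25 cycles (133 to 310) lies below Drop-seq at 30 cycles (338 to 690). Drop-seq at 35 cycles (261 to 521) lies above 10X at 30 cycles (56.5 to 160).

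The 35-cycle and 30-cycle libraries ask whether further PCR cycles moved the count of a gene. In Drop-seq, the FTH1 sum was 190 counts at 35 and 147 at 30 cycles, for a log2 ratio of CPM of -0.11 (-0.43 to 0.21). The largest identifier gave 60 and 49 counts and -0.19 (-0.75 to 0.39). FTL had 35 and 33 counts and a log2 ratio of -0.39 (-1.12 to 0.34). Of the genes with at least 100 counts over both libraries, 1.87% differed by 2-fold or more, a rule of size. FTH1, the only member that reached the minimum, was not among them.

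In 10X neither gene reached 100 counts over both libraries, where 30.6% of genes that did differed by 2-fold or more. FTH1 had 52 and 36 counts at 35 and 30 cycles as a sum (log2 ratio 0.23, -0.41 to 0.89) and 18 and 12 on the largest identifier (0.27, -0.85 to 1.47). FTL had 30 and 16 counts and a log2 ratio of 0.59 (-0.31 to 1.58). The intervals of both genes included 0 and, for FTL and for FTH1 on its largest identifier, also a 2-fold rise, so a change of that size was not detectable at this depth. In the 722 human cells shared by both libraries the FTH1 ratio had the other sign, -0.23 (-0.91 to 0.47).

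Drop-seq at 30 against 25 cycles was compared next, with the differences in kit, cell number and smallest value between those libraries. FTH1 had 147 and 273 counts as a sum and a log2 ratio of -0.11 (-0.41 to 0.18), below the 2-fold rule that 16.5% of tested genes passed. In the 135 human cells shared by both libraries the ratio was 0.35 (0.03 to 0.68). FTL had 33 and 24 counts, under the minimum, and a log2 ratio of 1.23 (0.44 to 2.06), which was 0.91 (0.12 to 1.73) once values below 3 were dropped from both libraries. Over all barcodes, with 46 and 200 counts, the FTL ratio was 0.08 (-0.42 to 0.54), so the difference seen in the human cells was not seen in the whole libraries.

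The same barcodes could be followed through the Drop-seq libraries, since 119 of them were human cells in all 3. FTH1 had a count in 17 of them at 25 cycles, 10 at 30 cycles and 12 at 35 cycles. The 10 cells with FTH1 at 30 cycles were all found again at 25 and at 35 cycles. Between 30 and 35 cycles, 3 of them had more FTH1 counts, 5 had fewer and 2 were equal. Of the 10, the cell with the most counts at 35 cycles held 9, 7 and 10 FTH1 counts at 25, 30 and 35 cycles, and the next held 12, 5 and 9. Cells with 1 or 2 counts at 25 cycles often had none at the higher cycle numbers, where values below 3 were not stored: of 17 cells at 25 cycles, 6 had 3 counts or more.

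FTL repeated in the same way in fewer cells. It had a count in 4 of the 119 cells at 25 cycles and in 3 at both 30 and 35 cycles, and the 3 were the same barcodes each time. One of them held 6, 12 and 16 FTL counts at 25, 30 and 35 cycles, another 7, 7 and 8, and the third 3, 6 and 8. All 3 had more FTL counts at 35 than at 30 cycles, while the total of all transcripts in these cells also rose, from 951 to 1294, from 231 to 344 and from 348 to 508. Over these cells FTL had 25 counts at 30 cycles and 32 at 35 cycles.

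**Figure D3:**
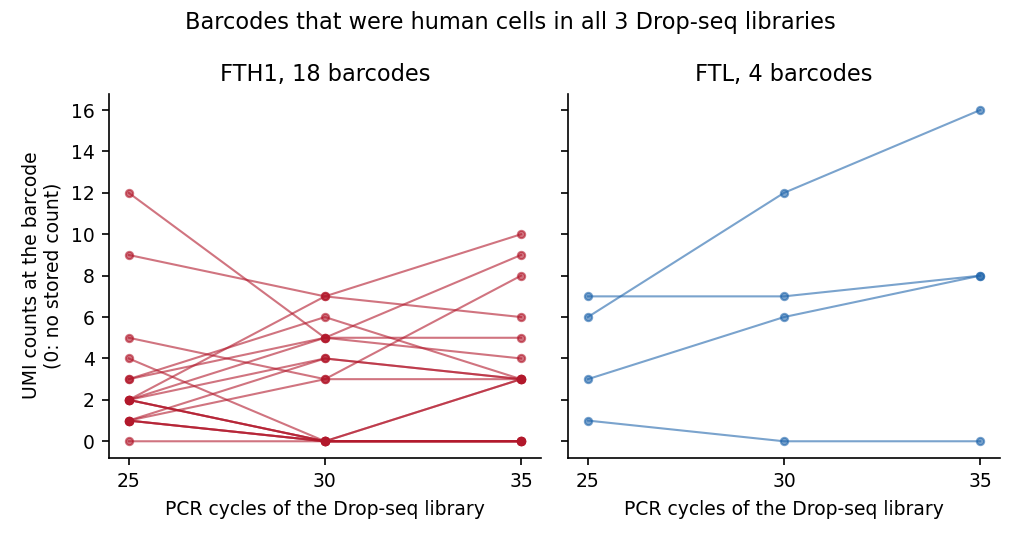
UMI counts of FTH1 (left, 18 barcodes on the largest identifier) and FTL (right, 4 barcodes) at 25, 30 and 35 PCR cycles for barcodes that were human cells in all 3 Drop-seq libraries and had a count in any of them. A point at 0 means no stored count, which at 30 and 35 cycles covers true values below 3. FTL rises from 30 to 35 cycles in its 3 lasting cells, and FTH1 goes both ways.

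The 10X libraries gave another picture. Of the 722 barcodes that were human cells at both cycle numbers, 6 had FTH1 at 30 cycles and 7 at 35 cycles, and 0 had it in both. FTL was found in 5 and 12 of them, again with 0 in both. For all human transcripts in these cells, 26.5% of entries stored at 30 cycles were stored again at 35 cycles, and 18.1% of those at the smallest value of 2. In Drop-seq the matching shares from 30 to 35 cycles were 84.4% of all entries and 71.5% of those at the smallest value of 3. By the exact binomial interval, 0 of 6 FTH1 cells allows a repeat share of up to 45.9% and 0 of 5 FTL cells one of up to 52.2%, and both limits lie above the shares of all 10X entries.

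Platforms were compared at equal cycle numbers as 10X over Drop-seq. At 30 cycles FTH1 had 36 summed counts in 10X and 147 in Drop-seq, a log2 ratio of -3.29 (-3.87 to -2.77), or 9.75-fold higher in Drop-seq. At 35 cycles it had 52 and 190, a log2 ratio of -2.95 (-3.43 to -2.51), or 7.74-fold higher in Drop-seq. As a sum, FTH1 passed the 2-fold rule in both, but so did 82.5% of tested genes at 30 cycles and 82.7% at 35 cycles. In the order from the lowest ratio FTH1 stood at 55 of 309 genes at 30 cycles and 103 of 392 at 35 cycles. The median log2 ratio of all tested genes was 0.73 at 30 and -0.35 at 35 cycles, and relative to that median FTH1 was at -4.02 and -2.60. On the largest identifier the FTH1 log2 ratio was -3.26 (-4.35 to -2.37) and -2.80 (-3.68 to -2.05).

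For FTL, 16 counts in 10X and 33 in Drop-seq at 30 cycles gave a log2 ratio of -2.29 (-3.28 to -1.41), and the 30 and 35 counts at 35 cycles gave -1.31 (-2.07 to -0.57). Both pairs were under the 100-count minimum, so neither was called. Over all barcodes the FTL log2 ratio was -1.14 (-1.83 to -0.47) at 30 cycles and -0.32 (-0.85 to 0.21) at 35 cycles, while that of FTH1 was -3.95 (-4.77 to -3.28) and -3.09 (-3.65 to -2.60). The markers of the human cells moved with the platform, as did the smallest stored value. With values below 3 left out everywhere, FTH1 was listed at 0 in the human cells of both 10X libraries, because every FTH1 value stored in those cells was 2, so no fold is given for that setting.

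The heavy to light ratio, FTH1 counts over FTL counts in human cells, was higher in Drop-seq than in 10X in each counting. On the largest FTH1 identifier it was 3.58 (2.26 to 5.89) at 25 cycles, 1.49 (0.94 to 2.38) at 30 cycles and 1.71 (1.11 to 2.68) at 35 cycles in Drop-seq. In 10X it was 0.75 (0.32 to 1.69) at 30 cycles and 0.60 (0.32 to 1.11) at 35 cycles. As a sum over identifiers it was 11.4, 4.46 and 5.43 for Drop-seq against 2.25 and 1.73 for 10X, so whether FTH1 or FTL came out higher in 10X depended on the counting. Per kilobase of the MANE Select transcripts the ratio on the largest identifier was 2.59 (1.63 to 4.27), 1.07 (0.68 to 1.73) and 1.24 (0.80 to 1.94) in Drop-seq, and 0.54 (0.23 to 1.22) and 0.43 (0.23 to 0.81) in 10X.

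Over all barcodes the ratio was steadier. It was 3.55 (3.03 to 4.17), 3.78 (2.72 to 5.36) and 3.75 (2.79 to 5.12) in Drop-seq at 25, 30 and 35 cycles on the largest identifier, and 0.53 (0.28 to 0.96) and 0.54 (0.35 to 0.82) in 10X at 30 and 35 cycles. The ratio in Drop-seq was 1.98 times that in 10X (0.76 to 5.21) in human cells at 30 cycles and 2.86 times (1.32 to 6.26) at 35 cycles. Over all barcodes it was 7.14 times (3.53 to 14.6) and 6.90 times (4.08 to 11.7). In human cells at 30 cycles the interval included 1, and in the other 3 it did not. The top FTL cell weighed on the Drop-seq values in human cells: without it the summed ratio was 7 at 30 cycles and 10 at 35 cycles. At 25 cycles a purity of 95% in place of 90% kept 121 human cells and gave a summed ratio of 50.75 with an FTH1 level of 4362 CPM and an FTL level of 85.9 CPM.

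**Figure D4:**
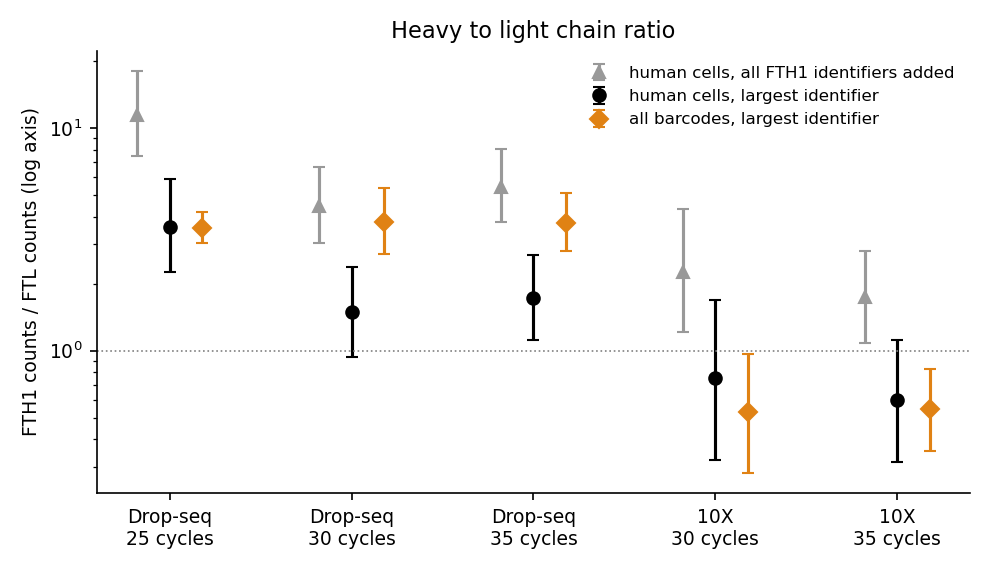
Ratio of FTH1 to FTL counts by library (log axis) in human cells with all FTH1 identifiers added, in human cells on the largest identifier, and over all barcodes on the largest identifier, with exact conditional binomial 95% intervals and a dotted line at 1. The all-barcode values are 3.55 to 3.78 in Drop-seq and 0.53 to 0.54 in 10X, and in human cells the 25-cycle library stands above the other Drop-seq libraries.

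Most human cells had no stored ferritin count. FTH1 was stored in 34 of 251 human cells (13.5%, exact interval 9.57% to 18.4%), 10 of 166 (6.02%, 2.93% to 10.8%) and 12 of 165 (7.27%, 3.81% to 12.4%) in Drop-seq at 25, 30 and 35 cycles. In 10X it was stored in 6 of 1006 (0.60%, 0.22% to 1.29%) and 9 of 911 (0.99%, 0.45% to 1.87%) at 30 and 35 cycles. Mouse cells, which should lack human FTH1, showed it in 9 of 590, 1 of 291 and 1 of 309 cells in Drop-seq. In 10X it was found in 0 of 806 and 0 of 881 mouse cells. There the approximate upper limits, 3 divided by the number of cells, are 0.37% and 0.34%, and the exact upper limits are 0.46% and 0.42%. The median depth was 271, 243 and 352 counts in human and 282.5, 278 and 417 in mouse cells of Drop-seq, and 118 and 171 in human against 117 and 171 in mouse cells of 10X. The human share of FTH1 was above the mouse share, without overlap of the intervals, in every Drop-seq library and in 10X at 35 cycles, and the intervals overlapped in 10X at 30 cycles. By the rule for cells, mouse cells hold few human counts, so this background is low by choice.

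FTL was stored in 8 of 251 (3.19%), 5 of 166 (3.01%) and 4 of 165 (2.42%) human cells of Drop-seq, and in 7 of 1006 (0.70%) and 15 of 911 (1.65%) of 10X. In mouse cells it was stored in 3 of 590 at 25 cycles of Drop-seq and in 0 in the other 4 libraries, and only in 10X at 35 cycles did the human and mouse intervals of FTL stay apart. After every cell was thinned to 100 counts, FTH1 remained in 7.97% (4.94% to 12%), 5.42% (2.51% to 10.0%) and 6.06% (2.94% to 10.9%) of human cells in Drop-seq and in 0.76% (0.25% to 1.76%) and 0.88% (0.38% to 1.72%) in 10X, where 348 cells at 30 cycles were too shallow and left out. FTL remained in 2.39%, 2.41% and 1.82% in Drop-seq and in 0.76% and 0.88% in 10X. At 100 counts the 3 Drop-seq intervals of FTH1 overlapped, and none of them reached down to those of 10X. At 200 counts the interval of 10X at 30 cycles (1.44%, 0.30% to 4.16%) did overlap those of Drop-seq at 30 cycles (8.18%, 3.81% to 15%) and 35 cycles (6.85%, 3.33% to 12.2%). That of 10X at 35 cycles (1.53%, 0.50% to 3.54%) also overlapped that of Drop-seq at 35 cycles. Thinning matched the totals and not the smallest stored value.

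Counts within positive cells differed between platforms as well. In Drop-seq a positive human cell held up to 12, 7 and 10 FTH1 counts at 25, 30 and 35 cycles, with medians of 2, 5 and 3.5. Over all human cells, the variance of the count over its mean was 4.65, 5.02 and 5.94 for FTH1 and 4.51, 7.82 and 11.1 for FTL there. The 10X values at 30 and 35 cycles were 1.99 and 1.98 for FTH1 and 2.49 and 1.97 for FTL. With cells thinned to 100 counts, the Drop-seq values were 2.935, 2.257 and 3.008 for FTH1 and 2.307, 3.404 and 2.311 for FTL. Those of 10X were then 1.74 and 1.919 for FTH1 and 1.326 and 1.535 for FTL. Without thinning, a gene whose positive cells all hold 2 has a value near 2 by construction, so the smallest stored value also sets this measure. In 10X all 6 and all 9 FTH1 cells held exactly 2, the smallest value stored there, and so did 6 of 7 and 15 of 15 FTL cells. Values of 2 made up 81.3% and 74.3% of all human entries in those cells, so the ferritin entries were of the common kind. In Drop-seq the mean stored value was 2.53, 4.90 and 5.00 for FTH1 and 3, 6.6 and 8.75 for FTL, beside 2.90, 5.20 and 5.61 for all human entries. The top FTL cell at 35 cycles, with 16 counts, was in the highest 1.70% of all human entries of that library.

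**Figure D5:**
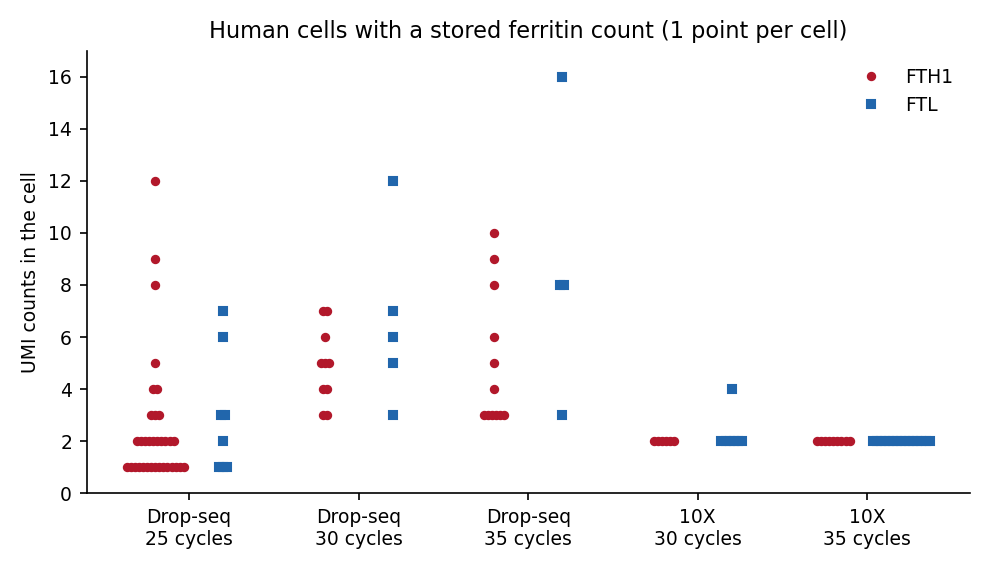
UMI counts of FTH1 (largest identifier) and FTL in each human cell with a stored count, 1 point per cell, by library. Drop-seq cells reach 12 for FTH1 and 16 for FTL, and all but 1 of the ferritin entries in 10X lie at 2, the smallest value stored there; values below 3 are missing from Drop-seq at 30 and 35 cycles.

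Each gene was stored in few human cells, for example FTH1 in 34 and FTL in 8 of 251 in Drop-seq at 25 cycles. With such sparse detection few cells with both genes could be seen, so nothing about the 2 chains is concluded from their number. Both genes were stored in 2 human cells of Drop-seq at 25 cycles, with 1 FTH1 and 3 FTL counts in one and 1 and 6 in the other, and in 0 human cells of the other 4 libraries. A ratio per cell could therefore not be formed. The second of these cells was the barcode with 12 and 16 FTL counts at 30 and 35 cycles, where no FTH1 was stored. In Drop-seq at 25 cycles, 96 of 251 human cells had a barcode 1 substitution or 1 shift away from that of a deeper human cell, and 16 of the 34 FTH1 cells were among them. Without those cells the FTH1 level at 25 cycles was 2032 CPM. Whether such barcodes are copies of the deeper cell was not tested.

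Much of the ferritin RNA lay outside the barcodes taken as cells. In Drop-seq at 25 cycles, 83% of FTH1 and 81.5% of FTL counts lay outside, beside 79.9% of all human counts. At 30 cycles the shares were 70.1% (62.7% to 76.8%) for FTH1, 28.3% (16.0% to 43.5%) for FTL and 56.6% for all human counts. At 35 cycles they were 69.6% (63.0% to 75.7%), 38.6% (26.0% to 52.4%) and 61.6%. At both of these cycle numbers FTH1 lay outside more often than human counts as a whole and FTL less often, and each ferritin interval left out the share of all human counts. These intervals treat each count as independent and are too narrow, so no conclusion is drawn from what they leave out. Over all barcodes at 30 cycles, 174 FTH1 counts lay in 33 barcodes and 46 FTL counts in 9. Without the top FTL cell the FTL share outside was 38.2% (22.2% to 56.4%) at 30 cycles and 53.7% (37.4% to 69.3%) at 35 cycles, and the latter interval included the share of all human counts. In 10X the shares outside were 33.3% and 51.4% for FTH1 and 52.9% and 50.0% for FTL, with intervals that included the 34.9% and 42.0% of all human counts for FTH1 at both cycle numbers, and for FTL at 35 cycles only.

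The other genes of iron handling were taken from a list of 34. Counts in human cells were found for 11, 7 and 8 of them in Drop-seq and for 14 and 16 in 10X. Among uptake genes, TFRC, the transferrin receptor, whose mRNA is also controlled by iron regulatory proteins, had 2, 0 and 0 counts in Drop-seq and 34 and 10 in 10X. Of the iron sensors, IREB2 had 0 counts in Drop-seq and 15 and 10 in 10X, and ACO1 had 0 in all 5 libraries. NCOA4, the receptor that takes ferritin to the lysosome, had 4, 0 and 6 counts in Drop-seq and 4 and 17 in 10X. None of the export genes, SLC40A1 (ferroportin) among them, had a count in any library. In the opposite direction, BLVRA, which reduces biliverdin after haem breakdown, had 18, 20 and 46 counts in Drop-seq and 0 in 10X, and ISCU, a scaffold of iron-sulphur cluster assembly, had 55, 28 and 16 counts in Drop-seq against 0 and 14 in 10X.

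PCBP2, an iron chaperone that delivers iron to ferritin and also binds RNA, was the only gene of the list that reached 100 counts over both libraries of a pair, and it did so in every pair. It had 165, 49 and 112 counts in Drop-seq and 157 and 112 in 10X. Its log2 ratio was 0.40 (-0.06 to 0.90) for 10X over Drop-seq at 30 cycles and -1.09 (-1.48 to -0.70) at 35 cycles. In the latter it passed the 2-fold rule, as did 82.7% of tested genes. Between 35 and 30 cycles it was 0.71 (0.22 to 1.23) in Drop-seq and -0.78 (-1.15 to -0.43) in 10X, and it was -0.96 (-1.46 to -0.50) for 30 over 25 cycles in Drop-seq. The 10X value lay between the quartiles of all tested genes, -0.88 and 0.51, and both Drop-seq values lay outside theirs. The 30 over 25 pair also differed in kit and smallest stored value. PCBP2 counts were added over identifiers, which can make their intervals too narrow. With cycle number PCBP2 thus had ratios of both signs, each larger in size than that of FTH1. The FTH1 interval in 10X (-0.41 to 0.89) reached as far.

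The genes whose pattern over the 5 libraries was nearest to that of FTH1, among 71 genes with at least 50 counts in the human cells of every library, were ribosomal protein genes, as were 33 of the 71 (46.5%). By the Euclidean distance of log2 CPM centred on each gene's mean, they were RPL41 at 0.39, RPS6 at 0.54 and RPL3 at 0.58, beside a median distance of 2.72. Near to FTL were RPS4X at 0.70 and RPSA at 0.73, beside a median of 2.05. The distances rest on 5 libraries of 2 platforms, and FTH1 and FTL did not themselves reach 50 counts everywhere. FTH1, RPL41, RPS6 and RPL3 shared a level that was high in the 3 Drop-seq libraries and low in both 10X libraries.

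FTH1 has many processed copies in the genome. Of 42 annotated ferritin pseudogenes, 3 had counts in any barcode, FTH1P10 with 1 in Drop-seq, and FTH1P3 and FTH1P4 with 2 each in 10X, and none had a count in a human cell. Reads that could not be told apart between FTH1 and such a copy would be counted under the stored identifier, which these counts cannot show.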

How the data were processed

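Mixed human and mouse cells were measured in 6 samples; the sample with read numbers only was not used. The deposited matrices hold UMI counts in whole numbers, with barcodes as rows and Ensembl transcripts as columns. According to the study's methods, the authors called bases with Guppy, used minimap2 against hg38 and mm10 transcripts and counted 10X UMIs with UMI-tools; whether the Drop-seq files are monomer or homotrimer counts is not given in the sources used here. Stored barcodes have 10 bases, so different cells could share one, and the filters behind the smallest stored values are not given. A low entry is therefore missing, not 0. Doublets of 1 species were not removed.

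Python 3.11.15 with numpy 2.4.6, scipy 1.17.1, pandas 2.3.3 and matplotlib 3.10.9 was used. Names came from GENCODE 44 without the version, which matched 42740 of 46484 human identifiers. Human counts in human cells were 67144 to 199308 per library. Levels have exact Poisson, shares exact binomial (Clopper-Pearson) and ratios exact conditional binomial intervals. Log2 ratios used a pseudocount of 0.5 counts and genes with at least 100 counts over both libraries. Thinning used 1 fixed seed. The ratio step was tested on simulated data. The members, the iron list and the marker lists were chosen with earlier results of these data known. The text names the 2 genes, transcripts with at least 100 counts, the 3 pseudogenes with most counts, iron genes at the minimum and the 3 nearest genes, of which 1 is not reported here; the other iron genes, rare transcripts and markers given by count were chosen after their values were seen. Alternatives changed the cells, purity, smallest value, counting of transcripts, scaling, minimum, pseudocount and thinned depth. Mouse ferritin was not analysed here.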

Additional observations from a re-analysis of the deposited data

Results flagged for a closer look

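Over the human cells as first chosen, the log2 ratio of 35 over 30 cycles had opposite signs on the 2 platforms for both genes. On its largest identifier FTH1 was at 0.27 in 10X and -0.19 in Drop-seq, and FTL was at 0.59 in 10X and -0.39 in Drop-seq. Each value compares 1 library with 1 library, every one of the 4 intervals included 0, and the difference was not tested. For FTH1 in 10X the sign depended on the cells used. As a sum its log2 ratio was 0.23, but -0.23 in the human cells shared by both libraries and -0.59 with the number of cells halved.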

How the results depend on the processing

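No paired analysis was possible because each group held 1 library. Of 290 alternatives, 231 stayed within the interval of the reported value, 59 moved outside it and 0 reversed a called value. The cause was not tested. Some of the 231 could not move. FTL has 1 transcript, so both transcript countings repeat its level, and leaving out values below 3 changes nothing in Drop-seq at 30 and 35 cycles. In the summed counting only FTH1 between platforms carried a call that could be reversed, so these numbers are no measure of robustness. Counting the largest identifier per cell, or the MANE Select transcript alone, gave FTH1 levels of 746, 730 and 642 CPM in the 3 Drop-seq libraries, by rising cycle number, and 74.1 and 90.3 for 10X, with ratios to FTL of 3.58, 1.49, 1.71, 0.75 and 0.60. With values below 3 left out, the 10X levels of FTH1 at both cycle numbers and of FTL at 35 cycles, the ratio at 30 cycles and the shares of cells with either gene were 0, and the FTH1 share at 25 cycles was 3.90%. Every FTH1 value stored in the human cells of 10X was 2, so its zeros follow from that filter, and no fold is given against any of these zeros. Halving the number of cells gave FTH1 1934 CPM at 25 cycles and 316 CPM in 10X at 30 cycles, a 35 over 30 log2 ratio of -0.59 in 10X and a platform log2 ratio of -2.75 at 30 cycles. A purity of 95% gave, at 25 cycles, 4362 CPM for FTH1, 85.9 CPM for FTL and a ratio of 50.75, and log2 ratios for 30 over 25 cycles of -0.92 for FTH1 and 2.44 for FTL. Over all barcodes the summed ratio was 11.4 at both 30 and 35 cycles in Drop-seq. With CPM over all counts the platform log2 ratios were -2.30 and -1.31 for FTH1 and FTL at 30 cycles and -2.14 and -0.50 at 35 cycles, and FTH1 was at 0.21 for 30 over 25 cycles. The median of ratios gave FTH1 -4.02 at 30 cycles, and shared barcodes gave it 0.35 for 30 over 25 cycles. Thinned to 200 counts, FTH1 was in 15.0% of human cells at 25 cycles and FTL in 2.45% in 10X at 35 cycles; without thinning the FTH1 share was 13.5%. Alternatives added after seeing the data gave, without the top cell, FTH1 1717 CPM at 35 cycles, FTL 317 and 206 CPM and ratios of 7 and 10 at 30 and 35 cycles in Drop-seq; without near barcodes, FTH1 2032 CPM at 25 cycles; for the share of FTL outside cells, 38.2% and 53.7% without the top cell; and over all barcodes on the largest identifier, platform log2 ratios of -3.95 for FTH1 and -1.14 for FTL at 30 cycles and -0.32 for FTL at 35 cycles. The few counts limited the comparisons of FTL and those of either gene with or within 10X.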
